A study of Mus musculus with 2 samples.

Results

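The transcription factor NF-kB and its IkB inhibitors are encoded by a family of genes, and 10 of them were examined here on 2 one-colour Agilent mouse arrays. They comprised 5 genes for DNA-binding subunits, Nfkb1, Nfkb2, Rel, Rela and Relb, and 5 genes for IkB proteins, Nfkbia, Nfkbib, Nfkbie, Nfkbiz and Bcl3. They were taken by name: non-control probes whose RefSeq accession resolved to one of these symbols were kept, which gave 14 probes for all 10 genes, out of 20659 named genes with a probe. The arrays were hybridised with Cy3-labelled total RNA from RAW246.1 cells, labelled as macrophages and grown in DMEM. The PBS group was the mock treatment and the miR-122 group received synthetic miR-122, a microRNA abundant in liver, with 1 array in each. The treatment text states a dose of 5 μg/mL for both samples alike, and the title of the second sample reads as if miR-122 had been left out, so the groups rest on the source names and descriptions. The study asked how miR-122 from liver acts on inflammatory activation of alveolar macrophages; neither liver nor lung cells were on these arrays. Per the file headers both arrays come from 1 scan image and lie at different positions in it, so position and treatment cannot be told apart. No member checks the labels. With 1 array per group no difference has a replicate check, and no p-value is given.

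NF-kB subunits share a Rel homology domain and bind DNA as dimers. In unstimulated cells the classical IkB proteins hold these dimers in the cytoplasm. Toll-like, interleukin-1 and TNF receptors activate the IKK kinase complex, which phosphorylates IkB, and the ubiquitin ligase SCF then marks it for degradation, so that dimers enter the nucleus. Much of this control acts on protein, which the arrays did not measure. Several members are also transcribed under NF-kB itself, and resynthesis of the protein of Nfkbia, IkB-alpha, is the classical negative feedback of the pathway. In macrophages these dimers drive cytokine and chemokine genes after contact with microbial products.

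All 14 probes of the members were well above background on both arrays, and none was saturated or marked as an outlier. Each was printed once, so the error given with a signal is that assigned to the spot by the scanner software, and it holds no spread between cultures. That error was close to the same share of the signal for each of these probes. Whether signal ranges overlap thus mostly restates the size of the difference. Signals with their errors are printed before scaling. A level is the log2 signal after subtraction of the array's own 75th percentile; a difference is the level on the miR-122 array less that on the PBS array, so positive values are higher with miR-122. Scaling matters for small differences: the 75th percentile of the log2 signal was lower on the miR-122 array by a difference of -0.28, the median by -0.10. After scaling on the 75th percentile, the 15022 named genes that passed the background filter on each array had a median difference of 0.09, with a range from -0.64 to 0.96 between the 5th and the 95th percentile. The reference genes Actb, Gapdh and Hprt differed by 0.21, 0.18 and -0.25. Of 11 macrophage marker genes with a probe, 10 were well above background on both arrays, among them Csf1r and Adgre1, and the exception was Mertk. Of 8 hepatocyte markers 5 were well above background on both arrays and 1 on 1 array, while Alb and Apoa1 were so on neither. Scaled signals of that list, summed before taking log2, gave -1.40 with PBS and -1.15 with miR-122. For the macrophage list they gave 8.06 and 7.88, and the lists hold different probes in different numbers. Marker lists of T and NK cells, B cells, neutrophils, fibroblasts, endothelial and epithelial cells each had between 2 and 4 genes well above background on both arrays, and their part in the results was not tested. In these cultures, fewer expressing cells and less RNA per cell cannot be told apart.

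As a group the members were modestly higher on the miR-122 array. Their median difference was 0.60, against 0.09 for all genes. All 10 differences were positive after scaling, as were 60.3% of all genes. Without scaling those of Rela and Nfkbia were -0.02 and -0.05, and 30.5% of all genes were positive. Nfkbiz, with a difference of 1.39, was the only member at least 2-fold higher, 1 of 10 against 4.57% of all genes. None was at least 2-fold lower, against 1.78% of all genes. At 1.5-fold, 5 of 10 members were higher, against 12.1% of all genes, and 0 were lower, against 5.99%. The count at 1.5-fold was 2 with median scaling, without scaling and with normexp, where 7.53%, 6.06% and 5.98% of all genes were that much higher. The subunit genes had a median difference of 0.58 and the IkB genes 0.62. The subunit genes ranged from 0.26 to 0.71 and the IkB genes from 0.22 to 1.39. Of the 10 members, 9 lay between the 5th and the 95th percentile of all genes.

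**Figure D1:**
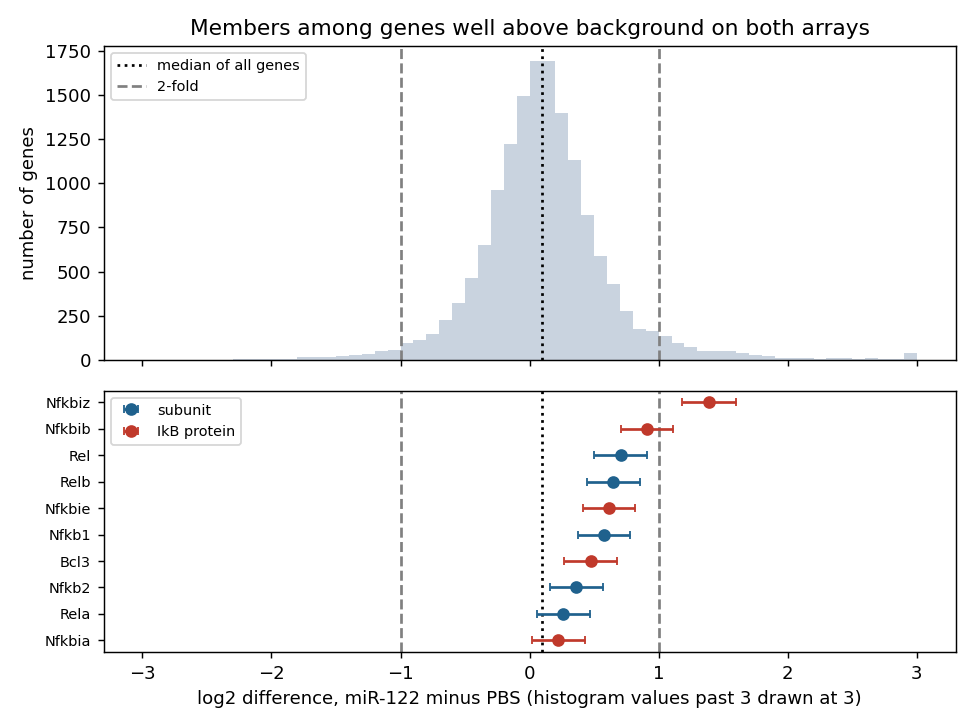
The upper panel is a histogram of the log2 difference, miR-122 minus PBS, of 15022 genes, and the lower panel places the 10 members on the same axis, subunits in blue and IkB genes in red, with bars for the software's error. All members lie to the right of the median of all genes, 0.09, and Nfkbiz alone lies past 2-fold.

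Rel had the largest difference among the subunits. It encodes c-Rel, a subunit with a transactivation domain that is prominent in cells of the immune system. Its processed signal was 511 ± 51.2 with PBS and 689 ± 68.9 with miR-122. The signal ranges did not overlap. The difference was 0.71, or 1.63-fold, after scaling and 0.43 before, with an error of 0.20. At least as large a difference was found for 8.56% of all genes.

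Relb followed with a difference of 0.65 after scaling and 0.37 before. Its product, RelB, pairs mainly with p52 in the alternative pathway. One probe of Relb gave signals of 442 ± 44.3 and 572 ± 57.3, and a dimmer probe gave 229 ± 23.0 and 263 ± 26.4, in the order PBS and miR-122. Both probes were brighter on the miR-122 array, and the dimmer one differed by 0.47 after scaling and 0.20 before.

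Nfkb1 encodes p105, the precursor of the p50 subunit. The brighter of its probes gave 1950.1 ± 195 with PBS and 2400.2 ± 240.03 with miR-122. Its difference was 0.58 after scaling and 0.30 before. The dimmer probe had 97.7 ± 10.1 and 138 ± 14.1, a difference of 0.77 after scaling and 0.50 before. Neither pair of signal ranges overlapped, before or after scaling.

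Nfkb2 and Rela showed the smallest differences among the subunits. Nfkb2 encodes p100, the precursor of p52, and its signals were 266 ± 26.7 and 282 ± 28.4, a difference of 0.36 after scaling and 0.08 before. Rela encodes p65, the subunit that carries most of the transactivation by the classical p50-p65 dimer. Its probe gave 6067 ± 607 with PBS and 5998 ± 599.9 with miR-122. These ranges overlapped with and without scaling, and the scaled difference of 0.26 was matched or exceeded by 31.9% of all genes. Rela and Nfkb2 thus had smaller differences than Rel, Relb and Nfkb1. Signal ranges of these last were apart on both scales, except for the dimmer Relb probe without scaling. With an error near a fixed share of the signal, ranges apart add little to the differences themselves.

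**Figure D2:**
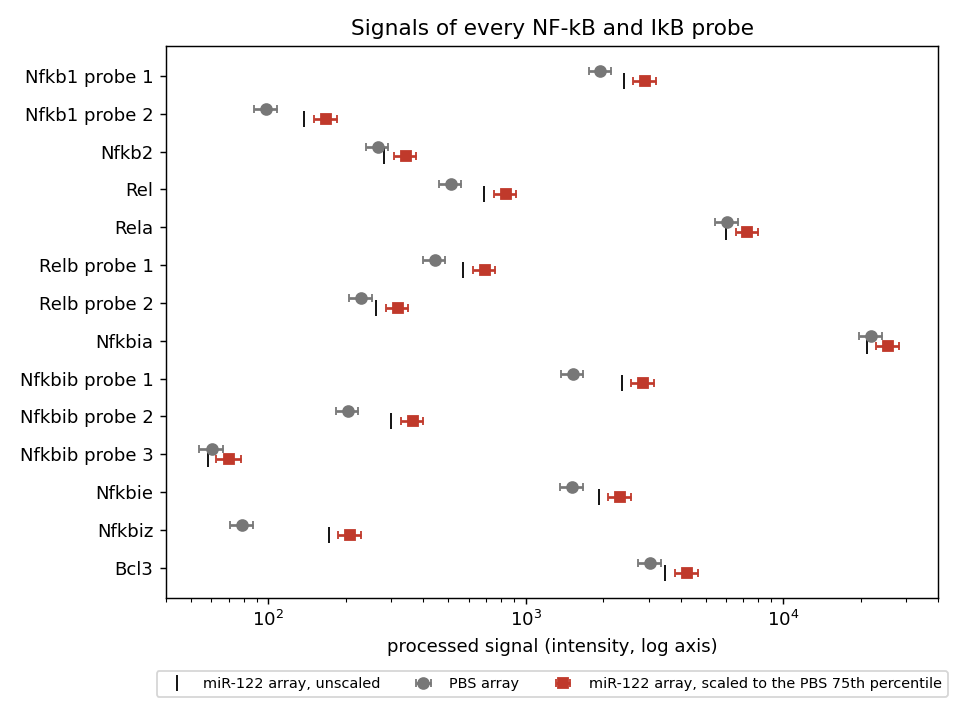
Each row is 1 probe of a member, with its processed signal on a log axis on the PBS array (grey) and on the miR-122 array after scaling (red), bars for the software's error, and a tick for the unscaled miR-122 signal. The ranges of Rela, Nfkbia and the dimmest Nfkbib probe overlap, and those of the other 11 probes are apart after scaling. The error of the log2 difference lay between 0.20 and 0.22 for each probe. The share of all probes with ranges apart was not computed, and the 75th percentile of the differences of all genes was 0.34.

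The 3 classical IkB genes differed from each other in how far apart the arrays were. Nfkbia encodes IkB-alpha, which is degraded and resynthesised fastest after stimulation. It had the brightest probe, at 21946 ± 2195 with PBS and 21156 ± 2116 with miR-122. The ranges overlapped, and the difference was 0.22 after scaling and -0.05 before. At this level few genes are available for comparison: of 231 genes within 0.5 of its mean level, 42.4% had at least as large a difference, and their median was 0.18.

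Nfkbib encodes IkB-beta, which binds c-Rel and p65 dimers and is degraded more slowly. Its brightest probe gave 1520 ± 152 with PBS and 2358 ± 236 with miR-122, 1.88-fold higher after scaling and 1.55-fold before. A probe at 203 ± 20.4 and 299.9 ± 30.1 differed by 0.84 after scaling and 0.56 before. The third probe, at 60.4 ± 6.46 and 58.0 ± 6.33, differed by 0.22 after scaling and -0.06 before, and its ranges overlapped. From the lowest to the highest, its probes thus spread by 0.69, and their mean difference was 0.66. The pooled standard deviation between probes of 1 gene, over all genes, was 0.30. A range over 3 probes is a different measure from a standard deviation, so these values are not compared. All 3 probes carry the same accession, and the part of the transcript read by each one was not analysed here. For the brightest probe, 5.51% of all genes differed by at least as much.

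Nfkbie encodes IkB-epsilon, another inhibitor that is induced with delay in mouse cells. Its signals were 1515 ± 152 and 1918 ± 192. The difference was 0.62 after scaling and 0.34 before, and the ranges did not overlap on either scale.

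The remaining pair of IkB genes encodes atypical, nuclear family members that act on transcription together with p50 or p52 dimers. Nfkbiz encodes IkB-zeta, which is induced by Toll-like receptor and interleukin-1 signals and is needed for a secondary set of inflammatory genes in mouse macrophages. Its probe was dim, at 79.1 ± 8.29 with PBS and 171 ± 17.3 with miR-122. It was 2.62-fold higher after scaling and 2.17-fold without, and 2.21% of all genes differed by at least as much. Among 1446 genes within 0.5 of its mean level, 1.94% did, and their median difference was 0.05. The spot medians behind these signals were 124 and 216, over local backgrounds of 17 on both arrays. With normexp background correction and an offset of 50, the fold of Nfkbiz was 1.92. No member was then past 2-fold, while 389 of 15022 genes were higher and 142 lower by that much. Plain subtraction of the local background, tried after the values were seen, gave 2.18-fold for Nfkbiz.

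Bcl3 encodes a protein that binds p50 and p52 homodimers in the nucleus. Its signals were 3047 ± 305 with PBS and 3491 ± 349 with miR-122. The difference was 0.47 after scaling and 0.20 before, and the ranges overlapped only before scaling.

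Over 9 ways of scaling, background correction and outlier handling, Nfkbiz had the largest and Nfkbib the second largest difference in each, and Nfkbia or Rela the smallest. With the mean over a gene's probes in place of the brightest, Nfkbiz stayed first, but Nfkbib at 0.66 lay below Rel at 0.71 and Nfkb1 at 0.68. All 10 members lay above the median of all genes in each of the 9, by a median of 0.50 in the scaling used. Neighbours in the order from Rel to Nfkb1, between 0.71 and 0.58, differed by less than the software's error of 0.20.

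**Figure D3:**
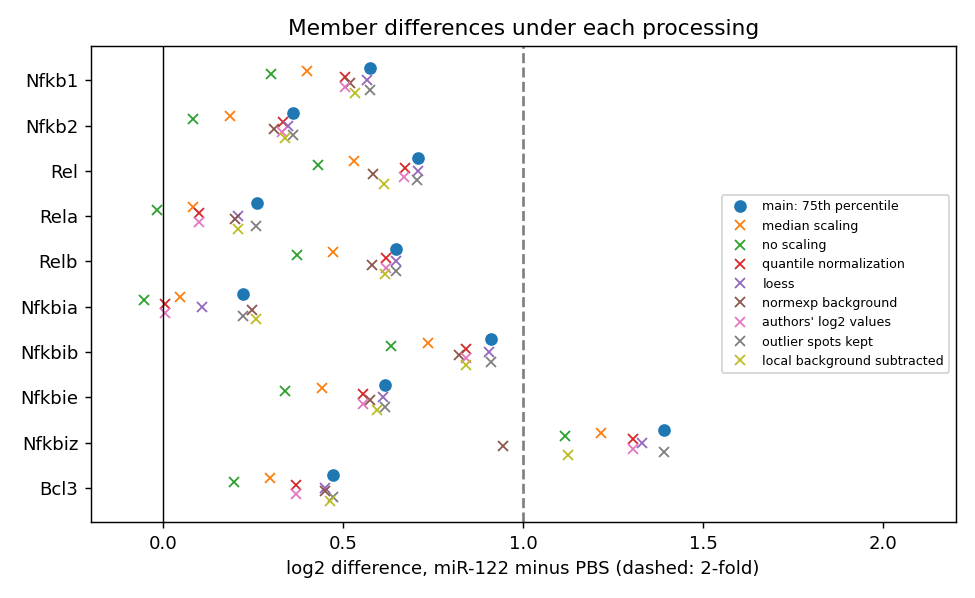
Each row is 1 member and each mark its log2 difference, miR-122 minus PBS, under 1 of 9 ways of processing, with the one used in the text as a filled point and 2-fold as a dashed line. Without scaling Rela and Nfkbia fall just below 0, and Nfkbiz falls below 2-fold only with normexp.

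Promoter windows of 7 members were read from RefSeq sequences of build GRCm38.p6, from 250 bases before to 50 after each annotated start, to set the differences beside NF-kB motifs. The kB consensus, a motif of 10 bases known by that name, was searched on both strands, as was the shorter core GGNNTTTCC, which can overlap it. The consensus occurred in 4.51% of 32851 promoter windows and the core in 5.82%. Of the 7 members 5 held the consensus, namely Nfkb2, Rel, Nfkbia, Nfkbie and Bcl3, and 4 held the core, against 5.14% and 6.62% of 27025 genes. Windows of 4 members are shown, with matches of the kB consensus in capitals. They include the smallest difference of the 7, 0.22 for Nfkbia, and the largest, 0.91 for Nfkbib, beside Nfkb2 and Rel. Rela, with a difference of 0.26 and no match of either motif, is among those not shown. Nfkbia lies at chr12:55492598-55492897 on the minus strand, the first annotated start of Nfkb2 at chr19:46304487-46304786 on the plus strand, Rel at chr11:23770920-23771219 on the minus strand and Nfkbib at chr7:28766595-28766894 on the minus strand. Each is written 5′ to 3′ along its gene.
Nfkbia: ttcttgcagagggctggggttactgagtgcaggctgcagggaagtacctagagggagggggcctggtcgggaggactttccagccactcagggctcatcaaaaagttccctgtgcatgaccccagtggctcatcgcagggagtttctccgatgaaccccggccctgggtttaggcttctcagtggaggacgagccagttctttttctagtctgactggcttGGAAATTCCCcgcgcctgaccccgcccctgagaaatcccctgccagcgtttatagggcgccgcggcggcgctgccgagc
Nfkb2: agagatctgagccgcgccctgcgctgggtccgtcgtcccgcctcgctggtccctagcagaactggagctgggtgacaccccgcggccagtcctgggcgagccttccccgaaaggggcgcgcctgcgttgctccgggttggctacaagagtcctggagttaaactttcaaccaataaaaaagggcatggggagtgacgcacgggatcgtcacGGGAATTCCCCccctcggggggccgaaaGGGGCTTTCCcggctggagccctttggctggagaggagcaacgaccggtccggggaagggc
Rel: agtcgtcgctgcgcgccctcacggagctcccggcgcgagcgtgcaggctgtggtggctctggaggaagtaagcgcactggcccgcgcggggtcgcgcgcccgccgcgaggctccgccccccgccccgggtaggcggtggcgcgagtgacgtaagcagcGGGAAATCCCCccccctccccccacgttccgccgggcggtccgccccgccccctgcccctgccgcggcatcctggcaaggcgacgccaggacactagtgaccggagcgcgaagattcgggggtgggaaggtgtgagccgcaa
Nfkbib: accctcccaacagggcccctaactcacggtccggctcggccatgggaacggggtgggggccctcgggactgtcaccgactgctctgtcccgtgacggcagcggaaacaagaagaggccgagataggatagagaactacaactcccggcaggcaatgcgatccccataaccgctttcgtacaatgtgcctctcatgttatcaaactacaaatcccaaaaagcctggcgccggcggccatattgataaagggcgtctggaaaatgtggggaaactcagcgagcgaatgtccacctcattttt

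In Nfkbia the match GGAAATTCCC spanned positions -29 to -20, counted from the start, and a match of the core, GGACTTTCC, spanned -178 to -170. The window of Nfkb2 held GGGAATTCCC and GGAATTCCCC, which overlap in all but 1 base, and GGGGCTTTCC nearest to the start. Rel held GGGAAATCCC and GGAAATCCCC, again overlapping, between positions -92 and -82. Nfkbib and Rela had no match of either motif in these windows. The 5 genes with a consensus match had differences between 0.22 and 0.71, and Nfkbib and Rela, without one, had 0.91 and 0.26. Nfkb1, Relb and Nfkbiz were not analysed here for motifs. These are descriptions of letters, and binding was not measured.

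**Figure D4:**
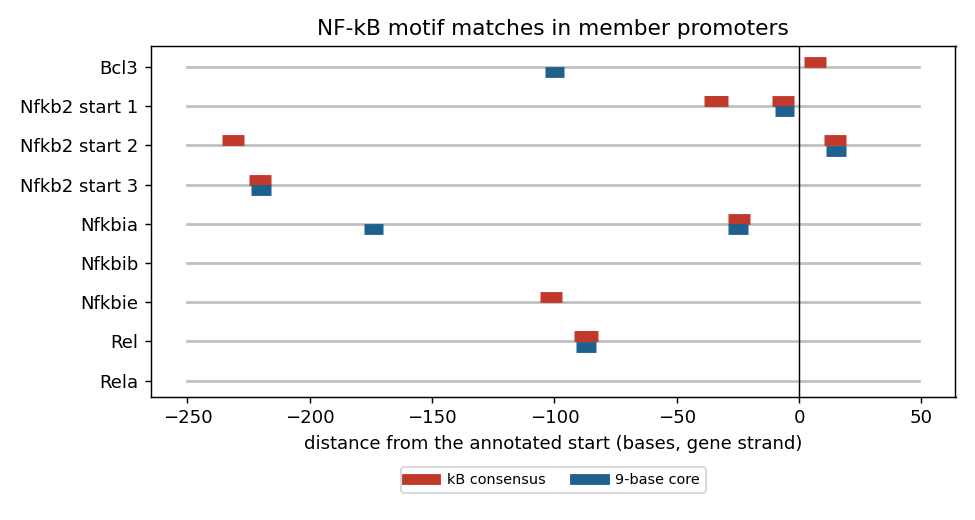
Each line is 1 promoter window of a member, from 250 bases before to 50 bases after the annotated start, with matches of the kB consensus in red above the line and of the 9-base core in blue below. Nfkb2 has 3 annotated starts, each with a consensus match. The windows of its later starts overlap, and the match GGGACTTTCC in both is the same site. Nfkbib and Rela have no match.

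Other genes of the pathway were set beside the members. Of 21 upstream kinases and ubiquitin ligases, including the IKK subunits, the kinase TAK1 and the SCF ligase that targets IkB, 0 were past 2-fold. Among all genes 4.57% were at least 2-fold higher and 1.78% lower. With those shares, a count of 0 in a list this short says little about it. The median difference of the 21 was 0.17, which turned to -0.01 with median scaling and -0.11 without scaling. The IKK genes Chuk, Ikbkb and Ikbkg, chosen with their values known, had differences of 0.11, 0.16 and 0.35. The largest differences of the list, also named with their values known, were 0.66 for Rnf31, 0.64 for Tbk1, 0.62 for Map3k8 and 0.58 for Ikbke. These were near the members' median of 0.60. Of the 21 genes 17 were positive and 4 negative, against 60.3% of all genes positive. Map3k14, the NIK kinase gene of the alternative pathway and also named after its value was seen, differed by -0.37 with 1 probe and 0.28 with another. Among 13 receptor-proximal adaptors the median was 0.29, with 0.12 under median scaling and 0.02 without scaling, and Myd88, the adaptor of most Toll-like receptors, was 2.13-fold higher, but under 2-fold with median scaling or without scaling. Among 17 inhibitors outside the IkB family the median was 0.32, with 0.14 under median scaling, 0.04 without scaling and 0.11 with quantile normalization. Tnfaip3, which encodes the deubiquitinase A20, had a difference of 1.06, and it was under 2-fold with median scaling, without scaling, with quantile normalization and in the authors' values. Of 15 nuclear cofactors 0 were past 2-fold, against the same shares of all genes, and the median was -0.09. A further list held 3 genes, Nfkbid and others chosen for similar ankyrin repeats. Of these 0 were past 2-fold, against the same shares, and their median was 0.73. All 3 are named with their values known: Ankrd33b differed by 0.95 with 1 probe and 0.54 with another, Nfkbil1 by 0.73 and Nfkbid by 0.03. Nfkbid is the gene of the nuclear protein IkBNS. Its difference was below 0 with median scaling, without scaling, with quantile normalization, with either other background correction and in the authors' values.

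Genes widely described as NF-kB targets had a larger median difference than the members, a comparison without a test. Among 34 target genes that passed the background filter, 15 were past 2-fold upwards, against 4.57% of all genes, and 0 downwards, against 1.78%. The count was 13 with median scaling, quantile normalization, normexp and the authors' values, and 14 with loess. Without scaling it was 11, where 394 of 15022 genes were that much higher. The list was chosen with earlier results of these data known. The median difference of these 34 was 0.97, and 0.69 without scaling. Of them 31 were positive, against 60.3% of all genes. The 6 with the largest differences were Cxcl10, Il6, Ccl5, Cd40, Csf1 and Irf1, with differences of 6.14, 6.10, 5.51, 4.21, 3.72 and 2.15. A dimmer probe of Irf1 differed by 1.27, less than Nos2 at 1.81, which is named with its value known. The place of Irf1 among the 6 thus rests on its brighter probe. On the PBS array the probes of Il6, Cd40 and Csf1 were dim, at levels of -3.70, -2.58 and -3.24, and with normexp their differences were 4.55, 3.36 and 2.60, which placed Il6 below Ccl5 at 5.33. The 6 genes encode 2 chemokines, the cytokine interleukin-6, a costimulatory receptor, a macrophage growth factor and a transcription factor. Of 5 genes described as needing Nfkbiz in mouse macrophages and with a probe, 4 were well above background on both arrays. Il6 differed by 6.10, and the others, chosen with their values known, gave 0.99 for Csf3, 0.33 for Ebi3 and 0.16 for Lcn2. Csf2, the gene of the growth factor GM-CSF, was above background on the miR-122 array only and was at least 3.41-fold higher there, but with normexp its difference was 0.56.

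**Figure D5:**
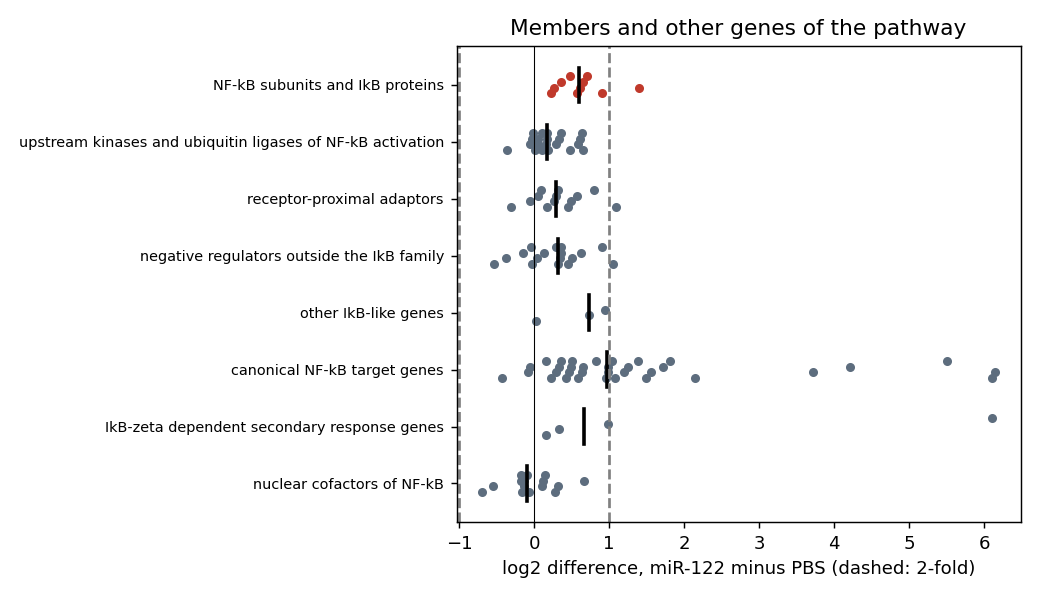
Each point is 1 gene well above background on both arrays, placed by its log2 difference, miR-122 minus PBS, with a black bar at the median of its list and dashed lines at 2-fold. The members, in red, lie between 0.22 and 1.39. The medians of the kinases and cofactors, 0.17 and -0.09, lie nearer to 0, and 15 of 34 target genes lie past 2-fold.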

How the data were processed

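The authors deposited spot intensities made with Agilent Feature Extraction (version 11.0.1.1, per the file headers), which subtracts background and removes spatial trends but sets the arrays to no common scale. The deposited series matrix holds log2 values that share 1 distribution; the method is not given in the sources used. Its columns correlated at 0.997 with the log2 signal of their own array. Outlier and control spots were left out, spots of a probe were averaged as log2, and the 75th percentile of non-control probes was subtracted. Accessions were matched without versions to a RefSeq table of GRCm38.p6, used for names. A gene took its brightest probe well above background on at least 1 array. For a gene above background on 1 array only, the dim array entered at its lowest well-above-background signal or at the probe's signal, whichever was higher, and the fold is a bound.

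Groups of 1 array allow no test, so 2-fold served as the fixed size. Alternatives were median, no, quantile and loess scaling (span 0.3), normexp (offset 50, on spot medians), the authors' values, outlier spots kept, the mean over probes, other filters on dim probes and thresholds of 1.5-fold and 4-fold. The members and lists were chosen with earlier results of these data known. The rule for named genes took all members and, per list, those past 2-fold, at most the 6 largest; the text says where it names others with their values known. The counting step was checked on simulated data with noise near that of repeated spots within an array. These data held no spread between cultures, so the check covers the code alone. R 4.3.3, limma 3.58.1, Python 3.11.15, numpy 2.4.6 and pandas 2.3.3 were used. Number of arrays limits the precision.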

Additional observations from a re-analysis of the deposited data

How the results depend on the processing

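No paired analysis was possible because each group held 1 array. The count of members at least 2-fold apart was 1, against 4.57% of all genes higher and 1.78% lower. With normexp it was 0, where 389 of 15022 genes were higher and 142 lower. At 1.5-fold it was 5, against 12.1% of all genes higher and 5.99% lower. At 4-fold it was 0, and the share of all genes was not computed. Under the other scalings, filters and probe rules the count at 2-fold was 1. With normexp Nfkbiz had a difference of 0.94. The median difference of the members was 0.60, and 0.32 without scaling, which lowers every difference by the same 0.28; elsewhere it lay between 0.42 and 0.60. For all genes, the 75th percentile gave 687 higher and 268 lower by 2-fold, median scaling 471 and 456, and no scaling 394 and 579. Among the members' probes, normexp moved that of Nfkbiz (1.39 to 0.94) and the dimmer Nfkb1 probe (0.77 to 0.55) by the most. The count at 1.5-fold under each scaling was added after seeing the data, and 1 array per group leaves the spread between cultures unmeasured.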
